A study of Mus musculus with 15 samples.

Results

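Choroid plexus RNA was compared between 6 arrays with a very high Ttr signal and the other 9 of the 15 arrays of a study of newborn mouse cerebellum. Ttr encodes transthyretin, the thyroid hormone carrier that the choroid plexus makes in large amounts. Arrays were chosen by the signal of their 1 Ttr probe, and those above 13 on the log2 scale were called Ttr-high (3 WT and 3 KO arrays) and the others Ttr-low (5 WT and 4 KO arrays). Signals are log2 values of probe brightness after each array was scaled to a common median, so a difference of 1 is a doubling. Of 16593 genes measured, the 16592 other than Ttr were then compared between these arrays, with genotype in the model.

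The study asked how loss of the chemokine receptor CXCR4 from the central nervous system changes gene expression in the cerebellum. KO mice were Cxcr4 flox/flox; Sox1-Cre, and WT mice were littermates without Cre, all C57BL/6 and 1 day old (P1), with 1 array for the whole cerebellum of each of 8 WT and 7 KO samples. Sox1-Cre is active throughout the neural tube, so that deletion was not limited to the cerebellum. The labels give neither the sex of an animal nor how much of the fourth ventricle was dissected with it.

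The choroid plexus is a frond of secretory epithelium over a core of vessels and stroma that hangs into each brain ventricle, and that of the fourth ventricle grows from the roof plate just beneath the cerebellum. Its epithelial cells pump ions and water to make cerebrospinal fluid, load it with carriers, hormones and vitamins, seal the path between cells with tight junctions, and bear tufts of cilia. Since it lies against the cerebellum, it can be left on or taken off when the tissue is dissected. In RNA from whole tissue, fewer cells of a type and less RNA per cell cannot be told apart.

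The Ttr signal that chose the arrays formed 2 separate groups. On the Ttr-low arrays it was 7.20 (KO 6), 7.33 (KO 8), 8.62 (KO 7), 9.19 (WT 2), 9.31 (WT 7), 9.56 (KO 4), 9.58 (WT 1), 9.64 (WT 5) and 10.59 (WT 3). On the Ttr-high arrays it was 15.46 (WT 4), 15.59 (KO 2), 15.61 (KO 3), 15.63 (WT 6), 15.85 (WT 8) and 15.90 (KO 5). The nearest arrays on either side of the threshold, WT 3 and WT 4, were 4.87 apart, and no array lay between them. The brightest probe of each array had a signal of 15.95 to 16.27, so that Ttr on the Ttr-high arrays was close to the top of the scale. These values are a description of how the arrays were chosen, and the p-values given for other genes measure their association with a division made from the same arrays.

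The numbers in the sample labels ran from 1 to 4 and from 5 to 8, with 3 Ttr-high arrays in each set, and the labels do not say what the numbers stand for. KO 6, KO 7 and KO 8 stood apart from the other 6 Ttr-low arrays, each with a lower mean level of genes of stroma and meninges, endothelium, pericytes, macrophages and the oligodendrocyte lineage and of 6 of 7 choroid plexus lists. Xist, the RNA of the inactive X chromosome, was above the Y-linked gene Eif2s3y on 2 of 6 Ttr-high and 5 of 9 Ttr-low arrays. These were WT 4 and WT 8 among the Ttr-high arrays, and WT 1, WT 2, WT 3, WT 7 and KO 7 among the Ttr-low arrays. Most WT arrays were so, but of the KO arrays only KO 7. Sex as read from these genes was thus uneven between genotypes, and its part in differences between KO and WT was not tested. Array medians lay between 97.3 and 122.9 units of signal before scaling. Cxcr4 had a log2 signal of 8.80 to 9.79 on the WT arrays and 6.45 to 6.89 on the KO arrays, with no overlap.

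Folr1, Kl and Clic6, the other markers by which the choroid plexus was to be recognised, were higher on each Ttr-high array than on any Ttr-low array. Folr1 encodes folate receptor alpha, which carries folate across the epithelium. Its log2 signal was 8.99, 9.89 and 10.38 (lowest, median and highest) on the 6 Ttr-high arrays and 6.35, 6.84 and 7.14 on the 9 Ttr-low arrays, a difference of 3.02 ± 0.15 (SE, adjusted p = 1.39e-11, limma) or 8.13-fold. Its second probe also separated the arrays, with means of 9.62 and 6.75.

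Clic6 encodes a member of the chloride intracellular channel family. Its signal was 11.33, 11.94 and 12.49 on the Ttr-high arrays and 6.93, 7.44 and 7.61 on the Ttr-low arrays, a log2 difference of 4.65 ± 0.14 (SE, adjusted p = 5.87e-15, limma). This was the largest log2 difference of any gene past the threshold. Kl encodes klotho, a co-receptor for a hormone of the fibroblast growth factor family. It was dimmer, with 7.06, 7.39 and 7.82 on the Ttr-high arrays and 6.12, 6.20 and 6.39 on the Ttr-low arrays, a log2 difference of 1.16 ± 0.09 (SE, adjusted p = 4.45e-08, limma). The dimmer of the 2 Kl probes had means of 6.06 and 6.10 and did not separate the arrays, so that the result for Kl rests on 1 probe. With the mean of both, the difference was 0.56 (adjusted p = 5.1e-06, limma).

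**Figure D1:**
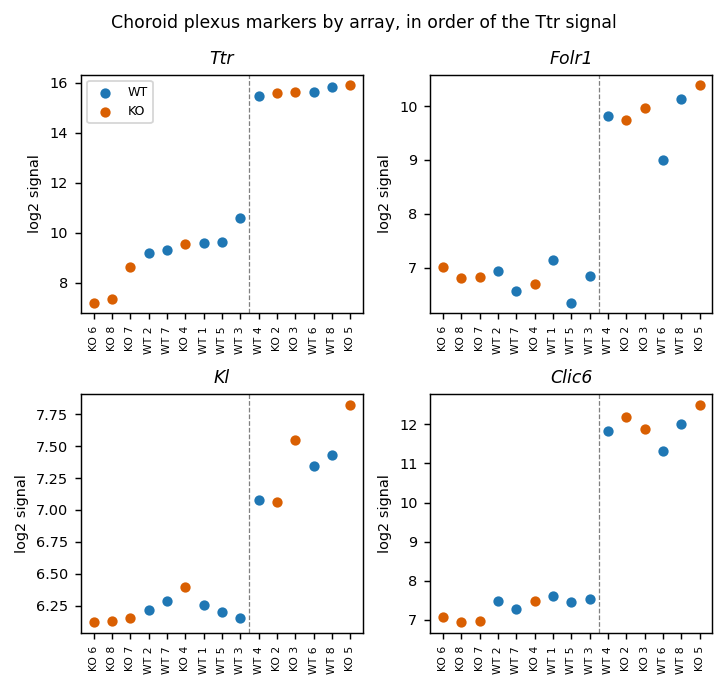
Log2 signal of Ttr, Folr1, Kl and Clic6 (vertical axes, scaled to a common array median) on each of the 15 arrays, ordered from left to right by the Ttr signal, with WT in blue, KO in orange and a dashed line between Ttr-low and Ttr-high arrays. Each Ttr-high array lies above all 9 Ttr-low arrays in all 4 panels; Ttr chose the arrays.

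Across all genes the difference ran almost wholly in 1 direction. Of 16592 genes, 246 (1.48%) were higher and 7 (0.0422%) were lower on the Ttr-high arrays at an adjusted p under 0.05 (limma, Benjamini-Hochberg), while 762 and 689 were so at an unadjusted p under 0.05. The median difference over all genes was -0.02 on the log2 scale. Of the genes that were higher, 46 differed by more than 1 and 15 by more than 2. The signals of 149 genes (0.898%) were higher on all 6 Ttr-high arrays than on any Ttr-low array, and 145 of these were among the 246. Only 9 genes (0.0542%) had all 6 Ttr-high arrays below every Ttr-low array, and 4 of these were among the 7. Within the arrays numbered 1 to 4 alone, 82 genes were higher and 3 lower, and within those numbered 5 to 8 alone 216 and 22. In these sets Folr1 differed by 2.98 and 3.27, Kl by 0.89 and 1.37 and Clic6 by 4.42 and 4.82 on the log2 scale.

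**Figure D2:**
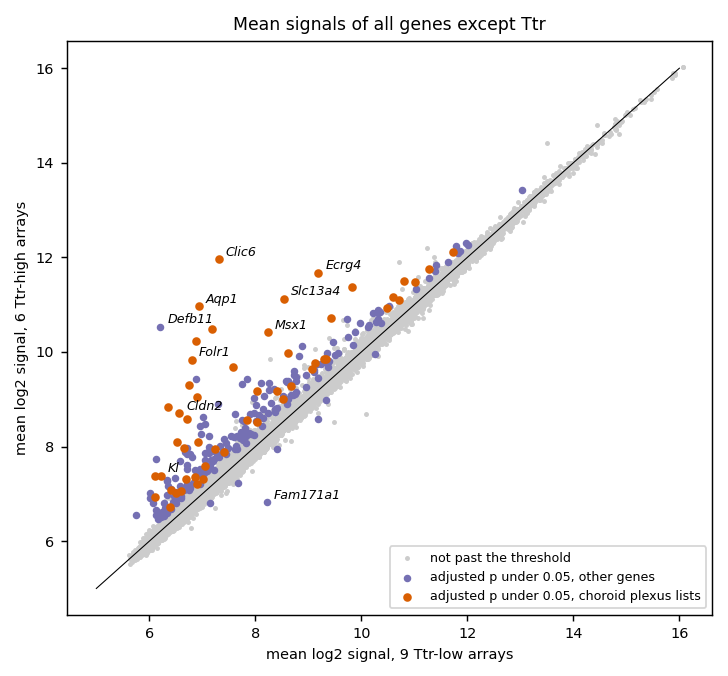
Mean log2 signal of each gene other than Ttr on the 6 Ttr-high arrays (vertical axis) against that on the 9 Ttr-low arrays (horizontal axis), with genes past an adjusted p of 0.05 in colour and a line at equality. Most coloured points lie above the line, among them Clic6, Defb11 and Aqp1, whereas Fam171a1 stands below it with means of 6.82 and 8.21.

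Genes of the choroid plexus were described by 7 lists sorted by role. Of 220 listed genes, 175 were measured, 51 of them (29.1%) were higher and 0 were lower on the Ttr-high arrays, beside 1.48% of all genes higher. The median log2 difference of the measured members was 0.15, beside -0.02 over all genes, so that most members differed little. They made up 20.7% of the 246 higher genes, 13 of the 15 with a difference above 2, and 14 of the 20 largest. Over 32 other settings and sets of arrays, the number of members that were higher ranged from 31 to 55. The lists were written with earlier results of these arrays known, so their counts are not independent evidence.

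Genes for the secretion of fluid had the largest share of higher members, 11 of 22 measured, with a median difference of 0.24. Aqp1, the water channel of the ventricular face of the epithelium, had a signal of 10.53, 10.95 and 11.26 on the Ttr-high arrays and 6.59, 6.97 and 7.25 on the Ttr-low arrays, a log2 difference of 4.04 ± 0.12 (SE, adjusted p = 2.08e-15, limma). All 3 of its probes separated the arrays, the others with means of 10.44 against 7.04 and 9.15 against 6.54. Kcne2, a regulatory subunit of potassium channels, lay at 9.26, 10.40 and 10.83 on the Ttr-high and 6.66, 6.83 and 7.13 on the Ttr-low arrays (log2 difference 3.36 ± 0.16). The carbonic anhydrases, which supply bicarbonate and protons to the ion exchangers, included Car12 at 2.47 ± 0.09, Car14 at 2.09 ± 0.24 and the cytosolic Car2 at 0.73 ± 0.08, all as log2 differences with SE.

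The list also held ion exchangers and their regulators. Slc4a2, an exchanger of chloride for bicarbonate, differed by 1.29 ± 0.10, and Slc12a2, the cotransporter of sodium, potassium and chloride, by 0.39 ± 0.08 on the log2 scale. Slc12a2 was bright on both sides of the division, with 11.93 to 12.40 on the Ttr-high and 11.59 to 11.99 on the Ttr-low arrays. Stk39, the kinase that acts on Slc12a2, differed by 0.43 ± 0.08, and Cab39l, a relative of the scaffold protein that activates such kinases, by 1.36 ± 0.14. Fxyd1, a regulator of the sodium pump, had the smallest difference of the list that passed, 0.30 ± 0.08 (adjusted p = 0.0489, limma), and it missed the threshold in 14 of the 15 fits that left out 1 array.

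Carriers of vitamins, metals, hormones and drugs were higher for 7 of 26 measured members, with a median of 0.23. Beside Folr1, these were Slc13a4 (log2 difference 2.63 ± 0.45), a cotransporter of sodium and sulfate; Slc16a8 (1.56 ± 0.11), a carrier of lactate; Slc39a12 (1.13 ± 0.12), a zinc importer; and Steap1 (0.82 ± 0.07), of a family of metal reductases. The copper importer Slc31a1 differed by 0.57 ± 0.07, and the organic anion carrier Slco1a4 by 0.34 ± 0.07. Slc22a8, an organic anion transporter that clears drugs from the fluid, had a log2 difference of 0.35 ± 0.10 and did not pass (adjusted p = 0.108, limma).

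Secreted proteins and carriers were higher for 10 of 27 measured members, with the highest median of the 21 lists, 0.38. Sostdc1, a secreted antagonist of BMP and Wnt signals, lay at 10.16, 10.40 and 11.18 on the Ttr-high arrays and 6.89, 7.19 and 7.38 on the Ttr-low arrays (log2 difference 3.30 ± 0.12). Ecrg4, the precursor of a secreted peptide, was bright on the Ttr-low arrays as well, at 8.69 to 9.56, and reached 11.32 to 12.02 on the Ttr-high arrays (2.49 ± 0.11). Wfdc2, a small protein of the protease inhibitor fold, differed by 2.12 ± 0.10, Clu, the chaperone clusterin, by 1.53 ± 0.10, and Lbp, which binds bacterial lipopolysaccharide, by 1.31 ± 0.13. The dimmer Wfdc2 probe had means of 6.61 and 6.41 and did not separate the arrays. The binding proteins of insulin-like growth factors, Igfbp2 and Igfbp7, differed by 0.70 ± 0.09 and 0.48 ± 0.12. Col8a2, Pcolce2 and Apoe, a collagen, an enhancer of collagen processing and a carrier of lipids, differed by 0.68 ± 0.08, 0.53 ± 0.08 and 0.49 ± 0.12. Of the 15 fits that left out 1 array, Igfbp7 missed the threshold in 11 and Apoe in 10. Igf2, a growth factor made by choroid plexus and meninges, had a signal of 14.02 to 14.86 on the Ttr-high and 11.54 to 14.63 on the Ttr-low arrays and did not pass (adjusted p = 0.331, limma).

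Among receptors and cell surface proteins, 5 of 19 measured members were higher, with a median of 0.09. Trpm3, a cation channel of the epithelium, had a signal of 8.98, 9.33 and 9.75 on the Ttr-high arrays and 6.46, 6.77 and 6.95 on the Ttr-low arrays (log2 difference 2.55 ± 0.10). It is read by 5 probes, of which 2 separated the arrays and the other 3 had means within 0.19 of each other on the 2 sides. Kl, Cd59a, an inhibitor of complement, Sema3b, a guidance factor, and Stra6, the receptor for the carrier of retinol, were the other 4, the last 3 with log2 differences of 0.55 ± 0.12, 0.49 ± 0.07 and 0.48 ± 0.11. The other 2 of 3 Sema3b probes had means of 6.16 against 6.19 and 6.89 against 7.00, and over all 3 the difference was 0.12 (adjusted p = 0.454, limma). Htr2c, the serotonin receptor known for its abundance in the choroid plexus of adult rodents, had a signal of 6.04 to 6.50 on the Ttr-high arrays and 6.07 to 6.47 on the Ttr-low arrays. That signal lay below the common array median of 6.84 on every array.

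Junction proteins and keratins of simple epithelia were higher for 6 of 17 measured members, with a median of 0.26. The claudins that set the leakiness of the junction included Cldn2 (log2 difference 2.14 ± 0.10), Cldn1 (1.87 ± 0.18, with KO 2 at 9.84 and the other Ttr-high arrays at 8.12 to 8.46) and Cldn3 (0.50 ± 0.09), and occludin, Ocln, differed by 0.47 ± 0.06. Cldn2 had a signal of 8.36, 8.63 and 9.14 on the Ttr-high arrays and 6.14, 6.60 and 6.79 on the Ttr-low arrays. The paired keratins Krt18 and Krt8 differed by 1.27 ± 0.08 and 1.17 ± 0.07.

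Transcription factors of the roof plate and choroid plexus moved little, with 2 of 25 measured members higher and a median of 0.05. The list also held factors of cerebellar cells, namely Zic1, Zic2 and Meis1 of the granule cell list, Sox9 of the glial list, and Ptf1a. Msx1, a homeobox gene of the roof plate, had a signal of 9.96, 10.53 and 10.66 on the Ttr-high arrays and 6.81, 8.94 and 9.24 on the Ttr-low arrays (log2 difference 2.24 ± 0.30). Otx2, which specifies the choroid plexus and is also made by granule cell precursors of the posterior cerebellum, was bright on both sides, at 11.03 to 11.26 and 10.49 to 11.22 (0.41 ± 0.09, adjusted p = 0.0149, limma). Without KO 5 its adjusted p was 0.0618. Lmx1a, the roof plate selector gene, differed by 0.19 ± 0.14 and did not pass.

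Genes of motile cilia were higher for 10 of 39 measured members, each by less than 1 on the log2 scale, with a median of 0.16. The largest differences were those of Nme5 (0.76 ± 0.08), Pifo (0.72 ± 0.09), the dynein light chain Dynlrb2 (0.65 ± 0.11), Ccdc113 (0.62 ± 0.10) and Tekt1 (0.62 ± 0.09), a filament protein of the axoneme. Rsph1 of the radial spoke, Mlf1, Spag6l of the central pair, Ccdc114 of the dynein dock and Cfap206 followed, with log2 differences of 0.30 to 0.58. These and Dynlrb2 missed the threshold within the arrays numbered 1 to 4 alone and within those numbered 5 to 8 alone. Ccdc113 missed it in the first set and Tekt1 in the second. Without KO 6, KO 7 and KO 8, Spag6l, Rsph1, Mlf1 and Cfap206 missed it. Of the 15 fits that left out 1 array, Cfap206 missed it in 9 and Rsph1 in 4. Nme5 lay at 8.99, 9.20 and 9.28 on the Ttr-high arrays and 8.19, 8.38 and 8.69 on the Ttr-low arrays, well above the array median on both sides. Foxj1, the regulator that switches on the genes of motile cilia, had a signal of 7.11 to 7.52 and 7.09 to 7.49 (log2 difference 0.08 ± 0.07) and did not pass.

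**Figure D3:**
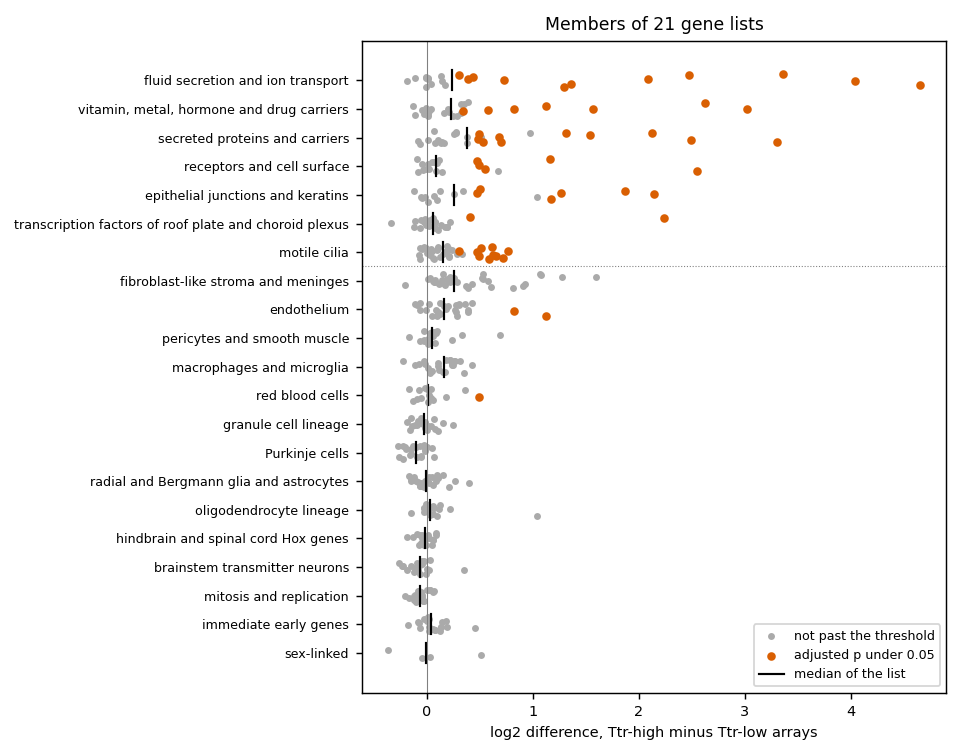
Log2 difference between the 6 Ttr-high and 9 Ttr-low arrays (horizontal axis) for each measured member of 21 gene lists (rows), with members past an adjusted p of 0.05 in orange and the list's median as a black bar; height within a row is scatter only. The 7 choroid plexus lists above the dotted line hold 51 orange points, all to the right of 0, and the 14 lists below it hold 3.

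Promoters were read for these genes because ciliated cells use RFX factors and the choroid plexus uses OTX2, and both bind known short motifs. The 250 bases before each start site were taken from RefSeq (GRCm38.p6), and 41 of the 51 higher members had an entry. A part of the site that RFX factors bind has the letters GTTGCC or, on the other strand, GGCAAC. These were found in 5 of 8 promoters of the higher ciliary genes (62.5%) and in 4 of 8 of the higher fluid secretion genes. They were in 1 of 6 for the higher carriers, 1 of 7 for secreted proteins and 1 of 4 for receptors. For junction proteins it was 1 of 6 and for transcription factors 1 of 2. Over all higher members it was 14 of 41 (34.1%). List members that were not higher were not counted apart. The same letters were in 18.6% of the promoters of all 246 higher genes, in 11.5% of those of the genes tested, and in 11.8% of all 27025 RefSeq genes with a promoter. The stretches from the ciliary genes and from Aqp1, Kcne2 and Slc4a2 are shown with the motif in capitals, 5′ to 3′ on the strand of the gene.
Ccdc113 (chr8:95534067-95534099, plus strand): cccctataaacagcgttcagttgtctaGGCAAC
Dynlrb2 (chr8:116504937-116504996, plus strand): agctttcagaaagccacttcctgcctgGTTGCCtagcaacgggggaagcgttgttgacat
Mlf1 (chr3:67373965-67374024, plus strand): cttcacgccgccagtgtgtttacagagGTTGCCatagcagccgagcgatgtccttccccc
Pifo (chr3:106001498-106001536, minus strand): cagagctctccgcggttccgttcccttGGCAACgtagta
Tekt1 (chr11:72361883-72361924, minus strand): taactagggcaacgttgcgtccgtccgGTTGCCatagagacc
Aqp1 (chr6:55336161-55336220, plus strand): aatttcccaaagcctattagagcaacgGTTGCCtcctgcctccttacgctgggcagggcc
Kcne2 (chr16:92292253-92292312, plus strand): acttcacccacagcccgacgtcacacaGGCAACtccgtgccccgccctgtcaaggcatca
Slc4a2 (chr5:24425741-24425800, plus strand): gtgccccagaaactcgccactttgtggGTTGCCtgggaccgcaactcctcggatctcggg
The first base of the motif lay 6 bases before the start site in Ccdc113, 12 in Pifo, 15 in Tekt1, 51 in Dynlrb2, 76 in Slc4a2, 105 in Mlf1, 109 in Kcne2 and 111 in Aqp1. Tekt1 held a further match, GGCAAC, 35 bases before its start.

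The letters TAATCC or GGATTA, the core of the OTX site, were in 6 of the 41 promoters (14.6%), beside 10.6% of the higher genes, 6.97% of the genes tested and 7.21% of all RefSeq genes with a promoter. They are shown for the bicarbonate enzyme Car14 and the zinc importer Slc39a12, with the motif in capitals.
Car14 (chr3:95904714-95904773, minus strand): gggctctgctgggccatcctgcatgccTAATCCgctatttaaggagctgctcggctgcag
Slc39a12 (chr2:14388346-14388397, plus strand): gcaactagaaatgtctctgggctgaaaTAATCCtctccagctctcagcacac
The other 4 were Apoe, Ccdc113, Mlf1 and Otx2 itself. A match of 6 letters is a description of the sequence and not a site of binding, and the 2 motifs cannot be read from the same 6 letters.

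Of the 20 largest differences, 6 were genes of no list. Defb11, a beta-defensin, one of the family of antimicrobial peptides, was second only to Clic6, with 10.19, 10.39 and 11.15 on the Ttr-high arrays and 6.04, 6.23 and 6.29 on the Ttr-low arrays (log2 difference 4.34 ± 0.10, adjusted p = 1.02e-16, limma). On the Ttr-low arrays its signal was below the array median in both genotypes. Rbm47, an RNA-binding protein of epithelia, differed by 2.55 ± 0.11, Klk4, a secreted protease, by 1.62 ± 0.10, and Ugt1a10, a glucuronosyltransferase, by 1.61 ± 0.08. Only the brightest Rbm47 probe separated the arrays. Its other probes had means of 5.74 against 5.83, 6.23 against 5.91, 6.24 against 6.10 and 6.49 against 6.34. Tgfbi, an extracellular matrix protein, differed by 1.62 ± 0.24 and Calml4, a calmodulin-like protein, by 1.60 ± 0.12. Beta-defensins and the Ugt1a genes have close relatives, and those of Ugt1a share exons, so the probe may read more than the named gene. Just below these 20 stood Ppp1r1b (1.57 ± 0.10), known as a phosphatase inhibitor of striatal neurons, and Scube3 (1.49 ± 0.09), a secreted glycoprotein.

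The 7 genes that were lower on the Ttr-high arrays belonged to none of the lists. Fam171a1 had the largest difference among them by far. Its signal was 6.58, 6.86 and 7.00 on the Ttr-high arrays and 7.99, 8.15 and 8.44 on the Ttr-low arrays, a log2 difference of -1.39 ± 0.08 (SE, adjusted p = 1.89e-10, limma), and the groups did not overlap. It is read by 1 probe. The other 6 differed by less than 1, with Ier5l at -0.60 ± 0.15, Ddit3, a transcription factor of the stress response, at -0.45 ± 0.07, Twnk, the helicase of mitochondrial DNA, at -0.45 ± 0.07, the mitotic kinesin Kif18b at -0.35 ± 0.08, the nuclear import receptor Tnpo2 at -0.32 ± 0.06 and Tbc1d22a at -0.31 ± 0.07. Of the 15 fits that left out 1 array, Ier5l missed the threshold in 11 and Kif18b in 9. The second Ddit3 probe went the other way, with means of 7.63 on the Ttr-high and 7.51 on the Ttr-low arrays. The count of lower genes depended on single arrays, with 32 in place of 7 without KO 4 and 11 without WT 3 or without WT 6.

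Cell types other than the epithelium were followed with 14 further lists, and 3 of their 293 measured members were higher and 0 were lower, a share of higher genes no greater than the 1.48% of all genes. Of 29 endothelial genes, Esm1 (log2 difference 1.12 ± 0.13) and Emcn (0.82 ± 0.14, with signals of 9.22 to 9.48 and 7.95 to 8.98) were higher, with a list median of 0.16. The mean level of the list was 8.69 to 8.97 on the Ttr-high arrays, 8.31 to 8.37 on KO 6, KO 7 and KO 8, and 8.51 to 8.84 on the other Ttr-low arrays. Emcn had a mean of 8.00 on those 3 arrays and 8.86 on the other Ttr-low arrays, and without the 3 its difference was 0.49 and that of Esm1 0.92, both past the threshold. Eng and Robo4, which came next, differed by 0.39 ± 0.11 and 0.38 ± 0.11 and did not pass. Of 15 red blood cell genes Alas2, the first enzyme of haem synthesis there, was higher by 0.50 ± 0.12, with a list median of 0.01, and it missed the threshold in 7 of the 15 fits that left out 1 array.

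The list of stroma and meninges had a median of 0.26 and 0 of 33 members past the threshold, with 6 higher and 1 lower at an unadjusted p under 0.05. Their mean level was 8.25 to 9.27 on the Ttr-high arrays, 7.29 to 7.67 on the Ttr-low arrays KO 6, KO 7 and KO 8, and 8.21 to 9.20 on the other 6 Ttr-low arrays. Mgp, Bmp4 and Pcolce, a matrix protein, a growth factor and an enhancer of collagen processing, had log2 differences of 1.59 ± 0.54, 0.91 ± 0.26 and 0.81 ± 0.26 and did not pass. The part of this tissue in the differences between Ttr-high and Ttr-low arrays was not tested beyond leaving those 3 arrays out, which gave 155 higher genes in place of 246 and 40 choroid plexus list members in place of 51. Without them Folr1 differed by 3.00, Kl by 1.07 and Clic6 by 4.39.

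Lists of the cells of the cerebellum itself had 0 members past the threshold in either direction. Medians were -0.03 over 24 genes of the granule cell lineage, -0.10 over 22 of Purkinje cells, -0.01 over 26 of radial and Bergmann glia and astrocytes and 0.02 over 17 of the oligodendrocyte lineage. Examples are Nhlh2 of granule cells at -0.19 ± 0.07, Dab1 of Purkinje cells at -0.27 ± 0.11, S100b of glia at -0.15 ± 0.06 and Cldn11 of oligodendrocytes, which meninges also express, at 1.04 ± 0.48. Neurons of the neighbouring brainstem (21 genes, median -0.07, with Isl1 at -0.26 ± 0.10) and Hox genes of the hindbrain and spinal cord (21 genes, median -0.02, with Hoxa5 at -0.19 ± 0.12) likewise had 0 members past it. So did mitosis and replication (26 genes, median -0.07, with Kif11 at -0.21 ± 0.10), immediate early genes (20 genes, median 0.04, with Zfp36 at 0.45 ± 0.15), macrophages and microglia (24 genes, median 0.16, with C1qa at 0.22 ± 0.08), pericytes and smooth muscle (18 genes, median 0.04) and sex-linked genes (4 genes, median -0.01).

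Each genotype was then compared on its own, which gave sets of arrays with no sample in common. Within WT (3 Ttr-high against 5 Ttr-low arrays) 108 genes (0.651%) were higher and 1 was lower, and within KO (3 against 4) 111 (0.669%) were higher and 2 were lower (limma, adjusted p under 0.05). The lists shared 82 higher genes, 75.9% of the WT list and 73.9% of the KO list, and the 1 gene lower in both was Fam171a1. All 108 had a positive difference in KO, and all 111 a positive difference in WT. The share of all genes with a positive difference in either genotype was not counted. Both divisions were made with the same Ttr threshold. Clic6 differed by 4.26 in WT and 5.08 in KO, Folr1 by 2.87 and 3.19, Aqp1 by 3.87 and 4.23, and Kl by 1.06 and 1.28 on the log2 scale. Without KO 4 the count within KO rose to 448 higher and 172 lower genes, and it was 56 higher without KO 5 and 73 without KO 8. The Ttr-low KO arrays were KO 4, KO 6, KO 7 and KO 8, and the last 3 also had the lower levels of stroma and endothelial genes. Without KO 4, the division within KO cannot be told apart from that lower level. Its part in the other differences within KO was not tested.

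**Figure D4:**
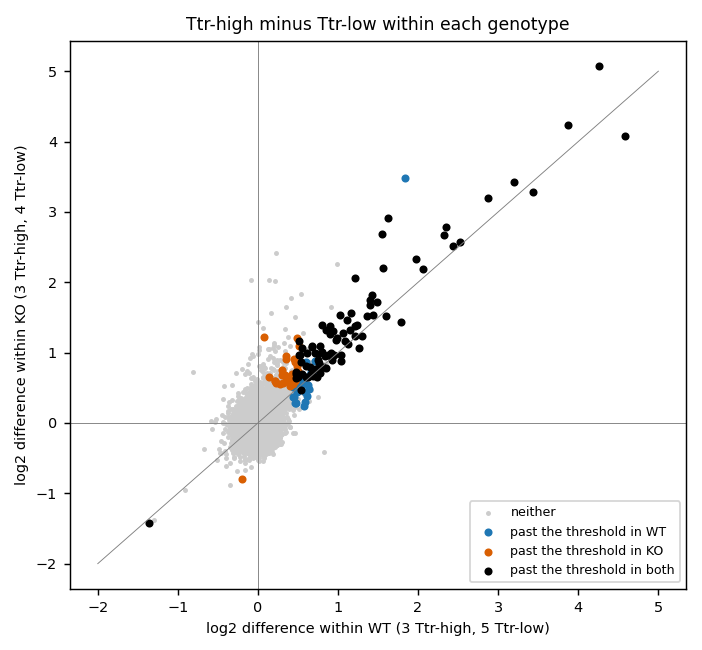
Log2 difference between Ttr-high and Ttr-low arrays within KO (vertical axis) against that within WT (horizontal axis) for each gene other than Ttr, with genes past an adjusted p of 0.05 in WT, in KO or in both in colour and a line at equality. The 82 genes higher in both, in black, lie in the upper right, and the single black point in the lower left is Fam171a1.

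The difference by Ttr itself was compared between genotypes through an interaction term. It passed the threshold for 0 genes (0.0%; lowest adjusted p = 0.861, limma), with 938 at an unadjusted p under 0.05, 28 of them among the 246 higher genes, and 9 genes passed without KO 4. For Clic6 the difference was larger in KO by 0.82 ± 0.23, for Folr1 by 0.32 ± 0.30 and for Kl by 0.22 ± 0.19. The 3 Ttr-high KO arrays were also set against the 3 Ttr-high WT arrays. There Cxcr4 alone passed (1 gene lower, 0.00603%), at -2.61 (adjusted p = 1.92e-06, limma), with 653 genes at an unadjusted p under 0.05, and with the replicate number as a block 0 genes passed. Of the 51 choroid plexus members 10 reached that unadjusted level, beside the 653 of all 16592 genes. Car2 with 0.32 ± 0.10, Clic6 with 0.46 ± 0.17 and Car14 with 0.69 ± 0.32 higher in KO were among them. How many of the 10 were higher in KO was not counted. Aqp1 stood at 0.10 ± 0.17 and Folr1 at 0.39 ± 0.23. For 28 of the 51 members KO 5 was the highest of the 6 Ttr-high arrays. Defb11, a gene of no list, stood at -0.44 ± 0.14. With 3 arrays on each side, differences of this size were not resolved. The 3 KO arrays and, of the WT arrays, only WT 6 had Eif2s3y above Xist, and the part of sex was not tested.

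The 6 Ttr-high arrays did not hold the 51 members at the same level. KO 5 was the highest of the 6 for 28 members and lay 0.22 above their common mean, and WT 6 was the lowest for 25 and lay 0.19 below it. KO 2 was the highest for 11 and the lowest for 14. The remaining arrays had mean deviations of -0.07 (WT 4), 0.01 (KO 3) and 0.04 (WT 8) on the log2 scale.

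Within the Ttr-low arrays, KO 6, KO 7 and KO 8 were lower than the other 6. Over the 51 members their mean deviations were -0.10, -0.11 and -0.17 on the log2 scale, beside -0.01 to 0.16 on the others, and the mean levels of 6 of the 7 choroid plexus lists were lower on each of them than on any of the other 6. Most of these differences were small, with 43 of 51 members (84.3%) and 91.4% of all genes differing by less than 0.3 between the means of the 3 and of the other 6 arrays. On the 3 arrays 8 of the 51 members (15.7%) lay below each of the other 6, as did 39 of the 246 higher genes (15.9%) and 3.59% of all genes. Among the members these were Clic6 (means 6.99 and 7.47), Aqp1 (6.63 and 7.08), Car14 (7.00 and 7.88) and Kl (6.14 and 6.25), with others. The 51 and the 246 genes were called with these 3 arrays on the Ttr-low side, so genes low on them passed more easily. Part of the excess over all genes can come from that choice, and how much was not tested.

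Among the 246 higher genes, Slc13a4, Msx1, Tgfbi and Aebp1 had a step of more than 1. The share of all genes with such a step was not counted. The mean level of the list of stroma and meninges also had a step, from 7.29 to 7.67 on KO 6, KO 7 and KO 8 to 8.21 to 9.20 on the other Ttr-low arrays. Slc13a4 lay at 6.67, 6.84 and 7.14 on KO 8, KO 7 and KO 6, at 8.54 to 10.44 on the other Ttr-low arrays and at 10.79 to 11.78 on the Ttr-high arrays. Msx1 lay at 6.81, 6.90 and 7.00 on the same 3 arrays, at 8.01 to 9.24 on the other Ttr-low arrays and at 9.96 to 10.66 on the Ttr-high arrays. The Ttr-low arrays of both genes fell into separate ranges. Tgfbi did so too, with means of 6.79, 8.37 and 9.42. Aebp1, a protein of connective tissue, had means of 7.07, 8.63 and 9.35, and its Ttr-high arrays overlapped the others (8.95 to 10.12 against 8.05 to 9.46). It missed the threshold in 11 of the 15 fits that left out 1 array.

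**Figure D5:**
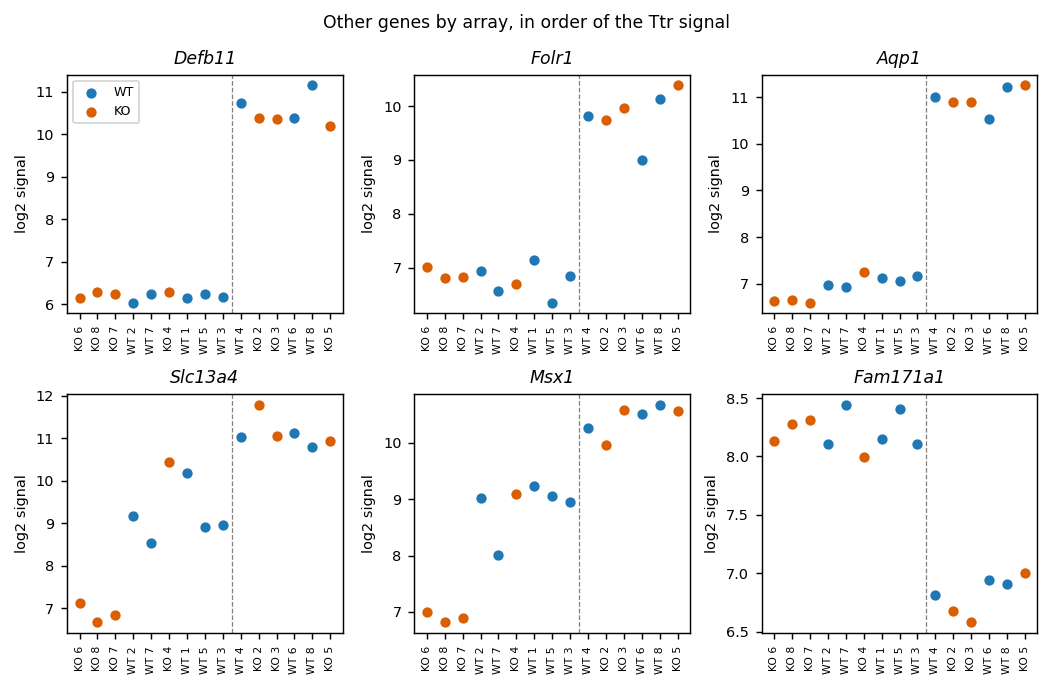
Log2 signal of 6 genes (vertical axes, scaled to a common array median) on each of the 15 arrays, ordered from left to right by the Ttr signal, with WT in blue, KO in orange and a dashed line between Ttr-low and Ttr-high arrays. Defb11 and Folr1 differ little among the Ttr-low arrays, Aqp1 is slightly lower on KO 6, KO 7 and KO 8 (mean 6.63) than on the other Ttr-low arrays (7.08), Slc13a4 and Msx1 are lowest on KO 6, KO 7 and KO 8 and intermediate on the other Ttr-low arrays, and Fam171a1 is lower on all 6 Ttr-high arrays.

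The comparison of genotypes was little changed by the division. With it in the model, 10 genes (0.0603%) were higher and 14 (0.0844%) lower in KO, beside 8 and 13 without it, and 21 genes were called both ways. Car3, Mfap4 and Shroom3 were called only with it. None of the 24 was among the 253 genes called between Ttr-high and Ttr-low arrays. As only 1.48% of all genes were higher and 0.0422% lower there, the lack of overlap says little. Ptf1a and Neurog2, transcription factors of cerebellar precursors, differed between KO and WT by -0.74 and -0.58 with the division, and between Ttr-high and Ttr-low arrays by 0.19 ± 0.11 and 0.05 ± 0.09. Without KO 4 the count of genes lower in KO was 70 in place of 14.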

How the data were processed

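Labelled RNA from 15 cerebella was measured on Illumina MouseRef-8 v2 BeadChips, with 1 array per sample. The authors extracted signals with GenomeStudio and deposited the intensity of 25697 probes without normalization between arrays, and a second table of log2 values shifted to a common array median of 6.84. Per the labels, samples were grouped by genotype. Which arrays shared a BeadChip is not given in the sources used here. The number of arrays limits the precision, and p-values set each difference against the spread between these samples.

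The deposited intensity was log2 transformed and scaled to the median of the second table, which it matched to within 6.23e-05. Symbols came from the platform annotation, updated through a RefSeq table (GRCm38.p6): 23978 probes carried a single symbol and 1719 carried none. The brightest probe stood for its gene. Tests were two-sided in limma 3.58.1 (R 4.3.3) with genotype as covariate and Benjamini-Hochberg adjustment over all genes except Ttr, at a threshold of 0.05. Errors of differences are SE. Other values were computed in Python 3.11.15. On data simulated for 16592 genes, 77% of changes of 0.4 and 98% of changes of 0.8 on the log2 scale were recovered, with 11 false calls. These figures hold for the simulated data and do not measure the reliability of the calls in the real data. There, lower genes numbered 32 in place of 7 when KO 4 was left out.

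The arrays, gene lists and tests were chosen with earlier results of these data known. Named genes are the markers, the 20 largest higher and 10 largest lower differences past the threshold, the 4 lowest p of each list and genes the study names. The remaining choroid plexus members past the threshold, Foxj1, Lmx1a, Shh, Igf2, Slc22a8, Htr2c, Ppp1r1b, Scube3, Aebp1, Car3, Mfap4 and Shroom3 were chosen after their values were seen. Alternatives were quantile, no or normexp (offset 50) adjustment, the authors' log2 table, a filter for probes above the median on 6 arrays, the mean of probes, blocks for replicate number and array set, Xist as a covariate, no genotype term, array weights, other eBayes settings, a threshold of 0.01, Ttr as a continuous term and leaving out each array. Leaving out KO 6, KO 7 and KO 8, and each array set alone, were added after seeing the data.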

Additional observations from a re-analysis of the deposited data

Results flagged for a closer look

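In 184 groups of signals (92 genes on the Ttr-high and on the Ttr-low arrays), 10 had 1 array far from the others by Dixon's ratio, and chance flags about 1 in 20 groups. KO 2 stood apart among the Ttr-high arrays for 4 genes: Cldn1 at 9.84 (next 8.46), Slc13a4 at 11.78 (next 11.13) and Zfp36 at 8.63 (next 7.76) were its highest values, and Esm1 at 7.45 (next 7.70) its lowest. On the same arrays WT 6 was apart for Scube3, at 8.08 (next 8.45), and for Pcolce, at 8.70 (next 8.41). Among the Ttr-low arrays, Clu was 10.35 on KO 4 (next 9.93), Mlf1 was 9.92 on WT 7 (next 9.44), Igfbp2 was 10.41 on WT 2 (next 10.71) and Rsph1 was 8.35 on KO 8 (next 8.93).

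Of 1719 probes without a gene symbol, which no comparison used, 10 (0.582%) were higher on all 6 Ttr-high arrays than on any Ttr-low array. The largest difference of means was 2.08, with at least 11.64 on the Ttr-high and at most 10.29 on the Ttr-low arrays.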

How the results depend on the processing

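Folr1, Kl and Clic6 stayed higher and past the threshold under each setting run, Kl with 0.56 in place of 1.16 over the mean of its probes, and 0 choroid plexus members were lower under any. Genes lower on the Ttr-high arrays numbered 22 with quantile normalization, 12 with normexp, 30 with the array set as a block, 26 with Ttr as a continuous term, 4 at a threshold of 0.01, 4 without KO 6, KO 7 and KO 8, 3 in array set 1 and 22 in set 2. Higher genes numbered 155 without those 3 arrays and 82 in set 1, where 31 choroid plexus members were higher. With quantile normalization 3 genes were lower within WT and 4 within KO, and 8 were lower within WT when array set was a block. The genotype comparison with the division gave 20 higher and 30 lower genes with the array set as a block, and that within the Ttr-high arrays 1 and 2. Leaving out each array in turn gave 182 to 310 higher and 5 to 32 lower genes, 45 to 53 choroid plexus members, 56 to 448 higher and 1 to 172 lower genes within KO, 72 to 119 and 1 to 5 within WT, 0 to 9 genes for the interaction, 7 to 15 higher and 10 to 70 lower genes for genotype, and 0 to 5 and 1 to 2 within the Ttr-high arrays. Folr1 then ranged from 2.93 to 3.19, Kl from 1.08 to 1.24 and Clic6 from 4.54 to 4.80. Of 67 called genes named, 14 lost the threshold without some array, among them 9 choroid plexus members, Fxyd1, Igfbp7, Apoe, Cfap206, Rsph1, Cd59a, Slco1a4, Stra6 and Otx2. Signs turned only for genes that had not passed: Cldn11 was -0.12 without KO 6, KO 7 and KO 8 and -0.34 in set 1, Mgp -0.030, Foxj1 -0.063 and Igf2 -0.13 in set 1, and Htr2c ranged from -0.021 to 0.066 over the fits that left out 1 array, with -0.025 without KO 6, KO 7 and KO 8 and -0.030 in set 2. The cause of these changes was not tested.

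Replicate numbers were shared by 7 WT and KO samples. Deviations from group means correlated from -0.17 to 0.39 within these pairs, over 0.1 in 3 of 7, and those left after genotype and the division from 0.01 to 0.41, over 0.1 in 6 of 7. As neither holds for every pair, the numbers were not taken to pair the samples, and 1 of 7 KO samples correlated best with the WT sample of its own number. With the replicate block, 214 genes were higher and 9 lower on the Ttr-high arrays, 16 were higher and 26 lower in KO with the division, and 0 were lower in KO within the Ttr-high arrays.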

Other observations

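Shh, the mitogen of granule cell precursors that hindbrain choroid plexus also secretes, had a log2 signal of 7.79 to 8.42 on the Ttr-high and 7.59 to 8.31 on the Ttr-low arrays (difference 0.26 ± 0.09, adjusted p = 0.35, limma). Trp73, a regulator of multiciliated cells, differed by 0.17 ± 0.07 and did not pass.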
